A study of Mus musculus with 90 samples.

Results

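The methionine cycle and transsulfuration genes described here are 10 mouse genes of methyl-group and sulfur metabolism: Bhmt, Mtr, Mat1a, Gnmt, Pemt, Ahcy, Cbs, Cth, Chdh and Dmgdh. They were picked by symbol, matched through Ensembl gene identifiers, and are 10 of the 27654 genes in the count tables. The liver uses and remakes methionine: methionine is turned into S-adenosylmethionine, methyltransferases spend it, the leftover S-adenosylhomocysteine is split to homocysteine, and homocysteine is either remethylated to methionine or passed on to cystathionine and cysteine. Betaine, made from choline in mitochondria, gives the methyl group for one of the remethylation routes, and folate with vitamin B12 serves the other. In rodent liver, glucocorticoids and the supply of dietary methionine are known to change the expression of several of these enzymes.

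The data were bulk polyA RNA-seq libraries from 90 livers of adult male C57BL/6J mice, 1 mouse a library, in 3 experiments. In the diet experiment, 3 WT mice on caloric restriction, which was lowered in steps to 40% fewer calories, were compared at ZT12 (lights off, the start of feeding) with 3 WT mice on the control diet, which the treatment label gives as night-restricted feeding and the sample titles as AL. The time series used WT mice (GRfl/fl without Cre) and GRLKO mice. The latter are the study's hepatocyte-specific knockouts, in which Alb-Cre deletes the floxed glucocorticoid receptor gene. Livers were taken at 6 times 4 h apart, 36 on caloric restriction (3 a group) and 42 on control feeding (3 or 4 a group). In the corticosterone experiment, 3 WT mice that received corticosterone were compared at ZT12 with 3 control mice labelled NR, all on night-restricted feeding; the study's methods describe vehicle injections for its controls, which the labels do not mention. Levels are given as CPM, counts scaled to the library total after TMM normalization, which do not correct for transcript length and so are not compared between genes. Library totals ran from 36442200 to 39492100 counts in the diet experiment, from 14235500 to 20788600 in the time series on caloric restriction, from 10057500 to 17089000 on control feeding, and from 13739600 to 16077900 in the corticosterone experiment. All 10 genes passed the filter on low counts in each of the 20 comparisons, and the lowest count of any of them in any library was 98.1, for Mtr.

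The labels were checked first. Nr3c1, the glucocorticoid receptor gene, was at 98.03, 102 and 104 CPM in the WT livers on caloric restriction at ZT12 and at 30.8, 31.01 and 32.2 CPM in the GRLKO livers. It was lower in GRLKO at each of the 6 times on each diet, with log2 changes from -1.70 (ZT12, caloric restriction) to -2.06 (ZT8, control). Fkbp5, a classical target of the receptor, was lower in GRLKO at ZT12 on caloric restriction (log2 change -2.84 ± 0.15 SE, adjusted p = 0.000144) and higher after corticosterone (2.63 ± 0.35, adjusted p = 0.00797). Tsc22d3 and Per1, also targets, moved the same way in these comparisons, by -1.86 and -1.22 and by 1.48 and 2.04.

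One property of the Ahcy counts has to be given before the results. Ahcy (chr2:155059310-155074497 in GRCm38) has near copies elsewhere in the genome, and 68.7% of the 31-base words of its transcripts also occur in those of Gm4737 (chr16:46152985-46155077). The coding sequences of both are 1299 bases long and differ at 4 bases, an identity of 99.69%. Bases 415 to 474 of each coding sequence, counted from the start codon in GENCODE M21, hold a pair of the differences, set in capitals.
Ahcy: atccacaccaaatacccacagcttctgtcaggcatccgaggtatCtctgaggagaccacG
Gm4737: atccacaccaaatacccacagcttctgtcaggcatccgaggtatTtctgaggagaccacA
In 7 of the 90 libraries, between 62.1% and 65.2% of the summed level of Ahcy and its copies (Gm4737, Gm9826 and Gm5638) had been assigned to the copies, while in the other 83 libraries the share was at most 0.916%. The 7 were replicates 1 and 2 of GRLKO on caloric restriction at ZT12, replicate 2 of GRLKO on control feeding at ZT12, and replicates 3 and 4 of WT and 2 and 3 of GRLKO on control feeding at ZT16. Ahcy results that these libraries touch are therefore given as deposited and with the copies summed, a sum that was chosen after the data had been seen. For Bhmt, which shares 30.29% of its words with other genes, the copies held at most 0.451%.

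Further libraries stood apart in markers of cell types or in the genes themselves. Pancreas transcripts, led by Ctrb1, were found in WT replicate 3 on caloric restriction at ZT12 (496 CPM over 5 markers) and in WT replicate 2 on control feeding at ZT16 (248 CPM). Erythrocyte transcripts were highest in GRLKO replicate 2 on caloric restriction at ZT0 (3076 CPM over 4 markers). On control feeding, GRLKO replicate 1 at ZT20 had a pericentral sum of 3152 CPM (6849 and 8168 CPM in the others) and Bhmt at 1439.7 CPM (3728 and 4867 CPM), and WT replicate 3 at ZT0 a pericentral sum of 4375 CPM (6333 and 6926 CPM) and Bhmt at 2399 CPM (5786 and 6348 CPM). Replicate 2 of the corticosterone livers differed from the other 2 in several of the 10 genes. No library was removed, and the results without those libraries that change a call are given below.

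**Figure D1:**
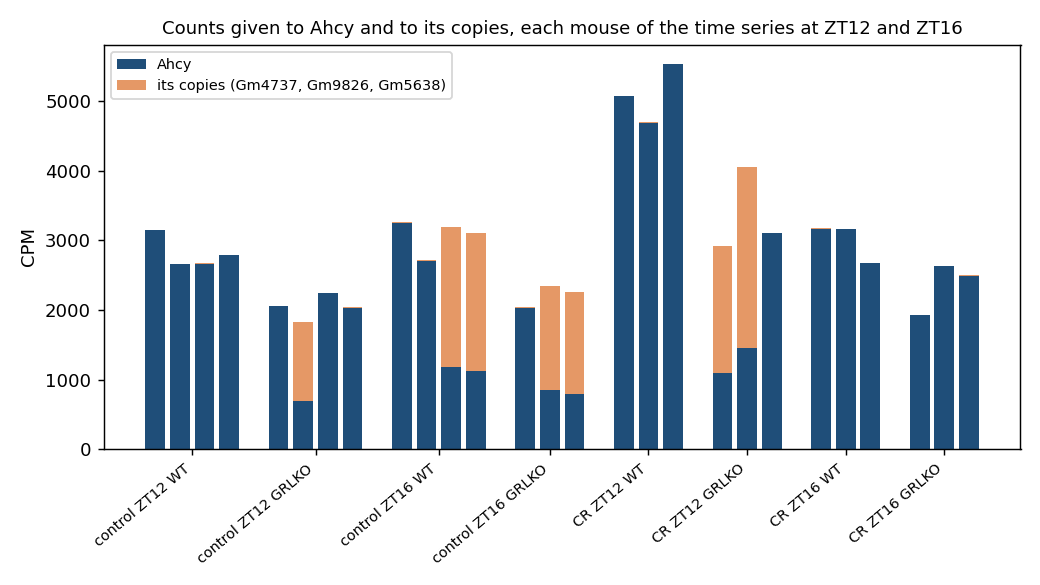
CPM assigned to Ahcy (dark) and to its copies (light) in each liver of the time series at ZT12 and ZT16, 1 bar a mouse. In 7 bars between 62.1% and 65.2% of the height lies on the copies.

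The diet comparison asks what caloric restriction does to these transcripts in WT liver at the end of the daily fast. Of the 10 genes, 6 were higher and 1 was lower on caloric restriction by edgeR at an adjusted p under 0.05, against 47.1% of the 13062 genes tested. The median of their absolute log2 changes was 0.72, beside 0.37 over all genes tested. The genes that rose make S-adenosylmethionine (Mat1a), spend it (Gnmt, Pemt), split its product (Ahcy), finish transsulfuration (Cth) or remethylate homocysteine with folate (Mtr), and the gene that fell opens the betaine route (Chdh).

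Mat1a, the liver's S-adenosylmethionine synthetase, was at 2625, 3316 and 2835 CPM on the control diet and at 5008, 5072 and 4749 CPM on caloric restriction. The groups did not overlap, and the log2 change was 0.75 ± 0.10 (SE, n = 3 and 3, adjusted p = 0.00129). Gnmt, which methylates glycine and so disposes of surplus S-adenosylmethionine, rose from 932, 973 and 1106 CPM to 1676, 1499 and 1651 CPM (0.68 ± 0.09, adjusted p = 0.00134). Pemt, which methylates phosphatidylethanolamine to phosphatidylcholine, rose from 207, 206 and 229 CPM to 356, 372 and 413 CPM (0.83 ± 0.09, adjusted p = 0.000532). In all of these genes every restricted liver was above every control liver. Groups without overlap were found for 7 of the 10 genes and for 59% of all genes tested. Ahcy, which splits S-adenosylhomocysteine to homocysteine and adenosine, went from 2532, 2542 and 2426 CPM to 4768, 4556 and 4979 CPM (0.93 ± 0.07, adjusted p = 0.000217), and none of these 6 libraries had counts on the copies beyond 0.0414%.

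In the transsulfuration branch, Cth, which releases cysteine from cystathionine, showed the largest rise of the 10 genes. It was at 183, 199 and 228 CPM on the control diet and at 389, 434 and 604 CPM on caloric restriction (1.22 ± 0.17, adjusted p = 0.00159). Cbs, which makes the cystathionine, was at 273, 228 and 325 CPM and at 234, 300.0 and 387 CPM. The Cbs groups overlapped (0.15 ± 0.20, adjusted p = 0.555), so the enzymes of the branch were not called together.

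On the remethylation side, Bhmt, the enzyme that moves a methyl group from betaine to homocysteine, was at 1557, 2706 and 1427 CPM on the control diet and at 1729, 551 and 247 CPM on caloric restriction. Replicate 1 of the restricted mice lay within the control range and the others below it, and the change was not called (-1.18 ± 0.65, adjusted p = 0.173). Without that liver it was -2.25 ± 0.44 with an adjusted p of 0.00670, but the liver was picked out by its own Bhmt level, so this p shows how far the result hangs on 1 liver and is no test of the diet. Chdh, the mitochondrial choline dehydrogenase that starts betaine synthesis, fell from 203, 207 and 187 CPM to 156, 143 and 146 CPM with no overlap (-0.43 ± 0.07, adjusted p = 0.00359). Mtr, the B12-dependent methionine synthase, rose from 11.7, 11.8 and 13.2 CPM to 15.8, 15.4 and 15.3 CPM (0.33 ± 0.08, adjusted p = 0.0130), and lost its call without control replicate 2 (0.30, adjusted p = 0.0522). Dmgdh, which breaks down the dimethylglycine that Bhmt leaves, ranged from 370.4 to 503 CPM and from 462 to 522 CPM and was not called (0.15 ± 0.12, adjusted p = 0.349).

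**Figure D2:**
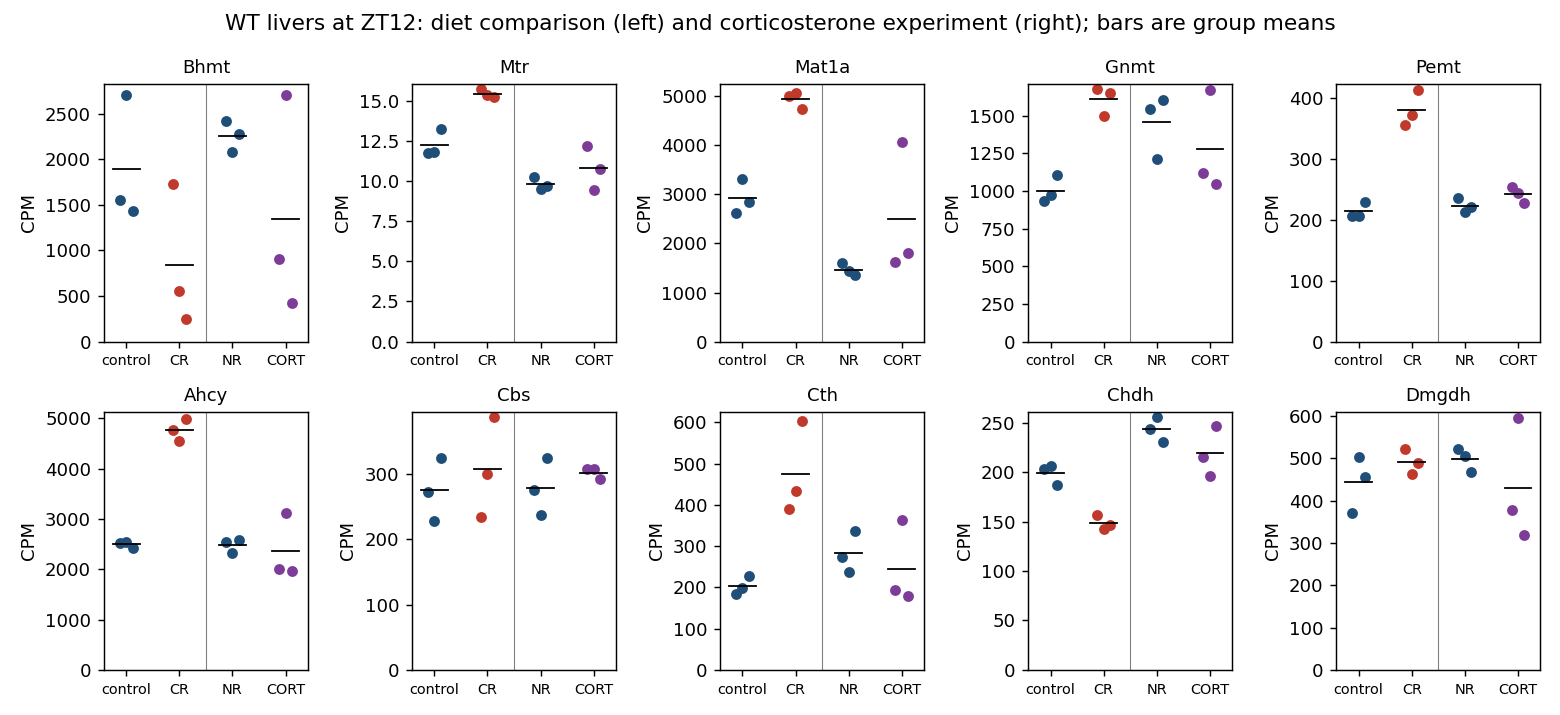
CPM of the 10 genes in each WT liver at ZT12, with the diet experiment left of the grey line and the corticosterone experiment right of it; points are mice and bars are group means. Corticosterone replicate 2 stands at 4061 CPM for Mat1a while the other treated livers are at 1618 and 1811 CPM.

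The same contrast taken from the WT livers of the time series at ZT12, where diet and library batch cannot be told apart, gave another result for a few genes. There Cbs was lower on caloric restriction (-0.43, adjusted p = 0.0191), Gnmt was not called (0.14, adjusted p = 0.478) and Dmgdh was called (0.40, adjusted p = 0.0487). Bhmt showed 0.02 (adjusted p = 0.979). Levels differed between the experiments as well. Gnmt in the control livers was at 1893 to 2020 CPM in the time series and at 932 to 1106 CPM in the diet experiment. Mat1a in the time series ranged from 1405 to 2046 CPM on control feeding and from 6360 to 7048 CPM on caloric restriction, a wider gap than in the diet experiment.

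Markers of liver cell types were read beside these changes. The summed level of 6 hepatocyte markers, of which Alb was the most abundant and none was at 0, was 79525, 80652 and 85663 CPM on the control diet and 154544, 156442 and 162138 CPM on caloric restriction. Its members did not move alike. Mean Alb went from 66285 to 131578 CPM, Tat from 901 to 7047 CPM and Ttr from 4470 to 5284 CPM. Hnf4a and Cps1 also rose, while Apoa1 went from 6337 to 5809 CPM. The sum of 6 Kupffer cell markers, led by Clec4f and with none at 0, was 89.4, 75.4 and 96.9 CPM and 63.4, 97.9 and 92.5 CPM. The sum of 6 periportal hepatocyte markers, led by Ass1, was 4465, 4128 and 5114 CPM and 7240.3, 7035 and 8133 CPM, and that of the 6 of 7 pericentral markers found in the tables, led by Cyp2e1, was 10455, 12914 and 10956 CPM and 11299, 10550.1 and 7873 CPM. The stellate sum (6 markers, led by Dcn) ranged from 168 to 212 CPM on the control diet and from 249 to 286 CPM on caloric restriction, and the endothelial sum (5 markers) from 105 to 144 CPM and from 170 to 201 CPM, with none at 0. The adipocyte sum, nearly all Car3 and with Plin1 at 0, was 1165, 1144 and 1142 CPM against 262, 94.2 and 65.6 CPM, and the lymphocyte sum 2.12, 3.03 and 1.74 CPM against 0.654, 0.858 and 0.682 CPM. None of these 4 sums overlapped between the diets. Their part in the changes of the 10 genes was not tested. In bulk tissue a change in the number of cells of a type, in RNA per cell or in the expression of the marker genes themselves cannot be told apart.

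The genotype comparison in the time series asks which of these transcripts depend on the hepatocyte receptor, at each time and on each diet. On caloric restriction at ZT12, edgeR called 4 of the 10 genes, 1 higher and 3 lower in GRLKO, against 15.3% of 11759 genes. Of the 10, 4 had an unadjusted p under 0.05 (31% of all genes) and DESeq2 called 4 (17.6%). The calls were Bhmt, Mat1a and Ahcy, which were lower, and Chdh, which was higher.

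Mat1a was at 6360 (replicate 1), 6628 and 7048 CPM in WT livers on caloric restriction at ZT12 and at 2789, 3350.2 and 2623 CPM in GRLKO livers. The lowest WT liver was well above the highest GRLKO liver, and the log2 change was -1.20 ± 0.11 (SE, n = 3 and 3, adjusted p = 0.000866). Bhmt was at 2773, 1582 and 1811 CPM in WT and at 366, 809 and 629.7 CPM in GRLKO, again without overlap (-1.78 ± 0.32, adjusted p = 0.0119). Chdh went the other way, from 163, 192 and 190.0 CPM in WT to 389, 407 and 434 CPM in GRLKO (1.17 ± 0.10, adjusted p = 0.000729). Of the 10 genes 4 had groups without overlap here, a share near the 36.8% of all genes. Each of these 3 calls held with any 1 of the 6 libraries left out, with log2 changes from -1.31 to -1.13 for Mat1a, from -2.05 to -1.50 for Bhmt and from 1.10 to 1.21 for Chdh. With a block for replicate number Bhmt was not called (-1.80, adjusted p = 0.0527).

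Ahcy as deposited was at 5064, 4689 and 5525 CPM in WT and at 1094, 1448 and 3106 CPM in GRLKO, where replicates 1 and 2 are those with counts on the copies. The log2 change was -1.44 ± 0.36 (adjusted p = 0.0347). It kept its call only without GRLKO replicate 3 (-2.01, adjusted p = 0.00258), and the omission of WT replicate 1 (-1.45), 2 (-1.50) or 3 (-1.39) or of GRLKO replicate 1 (-1.17) or 2 (-1.28) ended it, with adjusted p from 0.0697 to 0.110. With the copies summed the GRLKO livers were at 2919, 4057 and 3108 CPM, still below the WT livers at 5066, 4692 and 5531 CPM, and the change was -0.61 ± 0.14 (adjusted p = 0.0249). That call held in 2 of 6 leave-outs, those of WT replicate 2 and GRLKO replicate 2, with log2 changes from -0.76 to -0.52 and adjusted p from 0.00991 to 0.0836. The other 6 genes were not called at this time: Pemt (-0.09), Gnmt (-0.11), Mtr (-0.01), Cbs (-0.07), Cth (0.18) and Dmgdh (-0.10), so that Cth, Pemt, Gnmt and Mtr, which rose with the diet, showed no called difference between the genotypes.

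At the same time and diet, the sum of the hepatocyte markers was 161465, 162475 and 168249 CPM in WT and 120659, 128254 and 112312 CPM in GRLKO. Mean Alb was 138446 CPM in WT and 104923 CPM in GRLKO, and Tat 6585 and 2936 CPM. Apoa1, Hnf4a and Cps1 were lower in GRLKO too, while Ttr was level at 5175 and 5260 CPM. The Kupffer sum was 31.6, 52.1 and 38.8 CPM in WT and 88.1, 72.7 and 92.5 CPM in GRLKO, without overlap. The periportal sum was 10309, 8413 and 10609 CPM against 5720.45, 7659 and 6238 CPM, and the pericentral sum 14883, 16914 and 16052 CPM against 12247, 12428 and 12938 CPM. Both zonation sums were lower in GRLKO in every liver, and none of the 4 lists had a gene at 0. The 5 endothelial markers, led by Clec4g with none at 0, summed to 154, 141 and 170.0 CPM against 195, 180 and 201 CPM, and the 6 stellate markers, led by Dcn, to 212, 259 and 237 CPM against 228, 192 and 227 CPM. The part of these cell types in the results was not tested.

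The remaining lists were read in the same livers. The 5 cholangiocyte markers summed to 28.9 CPM in WT and 32.0 CPM in GRLKO, mostly Spp1, with Epcam at 0. The 5 lymphocyte markers summed to 0.379 CPM, with Nkg7 at 0, and 0.627 CPM, and the 4 erythrocyte markers, led by Hbb-bs, to 365 and 493 CPM. The adipocyte list of 4 genes stood at 317 and 1718 CPM, of which Car3, also expressed in hepatocytes, made up 317 and 1718 CPM, with Plin1 at 0 in both and Cfd at 0 in WT. The 5 pancreas markers were at 0 in 5 of the 6 livers and at 496 CPM in WT replicate 3. Without that liver the log2 changes were -1.17 for Mat1a (adjusted p = 0.00527), -1.87 for Bhmt (0.0316) and 1.19 for Chdh (0.00477), while Ahcy lost its call both as deposited (-1.39, 0.0916) and with the copies summed (-0.55, 0.0836).

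At the other times on caloric restriction edgeR called fewer of the 10 genes. At ZT16 edgeR called Chdh alone of the 10 genes (background 4.54%): it was at 266, 295 and 266 CPM in WT and at 402, 431 and 400.1 CPM in GRLKO (0.58 ± 0.09, adjusted p = 0.0123), and without WT replicate 1 the adjusted p was 0.0632 with a log2 change of 0.55. At this time 4 of the 10 had an unadjusted p under 0.05 (19.2% of all genes) and DESeq2 called 3 (7.9%), with Mat1a (-0.48, adjusted p = 0.0114) and Bhmt (-0.57, adjusted p = 0.0373) beside Chdh. The hepatocyte sum was 131585 to 137860 CPM in WT and 96985.6 to 124625 CPM in GRLKO at ZT16. The adipocyte sum was 490 to 712 and 3652 to 4050 CPM and the lymphocyte sum 0.352 to 0.568 and 0.877 to 1.85 CPM. These sums did not overlap, while the Kupffer, endothelial, stellate, periportal and pericentral sums did. Their part in the results was not tested. At ZT0, ZT4, ZT8 and ZT20 edgeR called 0 of the 10 (background 0.502%, 0.69%, 2.55% and 1.47%). At those times 4, 1, 3 and 5 of the genes had an unadjusted p under 0.05, beside 13.2%, 14.6%, 17.3% and 19.4% of all genes. DESeq2 called 3, 1, 2 and 2, beside 3.53%, 3.74%, 5.9% and 5.87%.

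Groups without overlap did not follow the count of calls. They were found for 3 of the 10 genes at ZT0 (20.2% of all genes), 1 at ZT4 (21.4%), 6 at ZT8 (24.8%), 5 at ZT16 (25.2%) and 7 at ZT20 (26.7%), beside the 4 at ZT12. The median of the absolute log2 changes of the 10 genes, with that of all genes in brackets, was 0.20 at ZT0 (0.13), 0.15 at ZT4 (0.16), 0.22 at ZT8 (0.16), 0.15 at ZT12 (0.25), 0.28 at ZT16 (0.17) and 0.29 at ZT20 (0.19). Bhmt and Ahcy were lower in GRLKO at all 6 times by their fitted values, from -0.29 (ZT4) to -1.78 (ZT12) for Bhmt and from -0.27 (ZT4) to -1.44 (ZT12) for Ahcy as deposited or -0.61 (ZT12) with the copies summed, but were called by edgeR at ZT12 alone. DESeq2 also called Ahcy as deposited at ZT0 (adjusted p = 0.00011), ZT8 (0.00388) and ZT20 (0.00142), and Bhmt at ZT0 (0.0268), ZT4 (0.0206) and ZT16 (0.0373). For Bhmt at ZT20, leaving out GRLKO replicate 3 gave a call by edgeR (-0.75, adjusted p = 0.0419, beside -0.50 and 0.214 with all livers).

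On control feeding edgeR called 1 of the 10 genes at ZT12 and 1 at ZT16. At these times 2 and 5 had an unadjusted p under 0.05 (12.6% and 16.6% of all genes), and DESeq2 called 2 and 2 (4.93% and 5.43%). At ZT12 (background 2.08%) Gnmt was at 1941, 1893, 2020.0 and 1908 CPM in WT and at 1544, 1604, 1579 and 1507 CPM in GRLKO. The groups did not overlap, as for 3 of the 10 genes and 8.33% of all genes, and the change was called (-0.32 ± 0.06, n = 4 and 4, adjusted p = 0.0284), but it kept the call in 1 of 8 leave-outs, with adjusted p from 0.0480 to 0.0864: only the omission of WT replicate 4 left it under 0.05. At ZT16 (background 1.98%) Bhmt was at 4643, 2738, 2433 and 3072 CPM in WT and at 1722, 1396 and 1527 CPM in GRLKO (-1.06 ± 0.21, adjusted p = 0.0496), and the call held in 2 of 7 leave-outs, those of WT replicates 1 and 3, with log2 changes from -1.17 to -0.84 and adjusted p from 0.0293 to 0.165. Without WT replicate 2, the liver with pancreas transcripts, it was -1.13 (adjusted p = 0.0901). At this time 3 of the 10 genes and 17% of all genes had groups without overlap. In 1 fit of all livers on control feeding neither change was called, with adjusted p of 0.0834 for Gnmt and 0.128 for Bhmt. A block for replicate number also ended both calls (0.144 and 0.1001).

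Ahcy as deposited was not called on control feeding at ZT12 (-0.69 ± 0.31, adjusted p = 0.396) or ZT16 (-0.76 ± 0.48, adjusted p = 0.473). With the copies summed it stood at 2656 to 3143 CPM in WT and 1832 to 2240 CPM in GRLKO at ZT12, and at 2711 to 3258 CPM and 2048 to 2338 CPM at ZT16, without overlap at either time. The changes were then called, at -0.47 ± 0.09 (adjusted p = 0.0302) and -0.47 ± 0.09 (adjusted p = 0.0383). The first call held in 1 of 8 leave-outs, that of GRLKO replicate 3 (adjusted p from 0.0290 to 0.0828), and the second in 0 of 7 (adjusted p from 0.0515 to 0.110). Mat1a was at 2046, 1482, 1405 and 1932 CPM in WT and 1517, 1251, 2291 and 1543 CPM in GRLKO at ZT12, with overlap and no call (-0.06 ± 0.19, adjusted p = 0.946).

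Markers were read here too. At ZT12 the periportal sum was 6620 to 7835 CPM in WT and 4930.2 to 6028 CPM in GRLKO and the adipocyte sum 2215 to 3649 and 3885 to 6167 CPM, without overlap, while the hepatocyte sum overlapped (75243 to 92178 and 61263 to 80903 CPM). At ZT16 the hepatocyte sum was 81871 to 91558 CPM in WT and 66645 to 79120 CPM in GRLKO, the endothelial sum 99.5 to 105 and 77.4 to 96.2 CPM, and the adipocyte sum, nearly all Car3, 1993 to 3159 and 5197 to 5705 CPM, all without overlap. The Kupffer sums overlapped at both times. Their part in the results was not tested.

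At ZT0, ZT4, ZT8 and ZT20 on control feeding edgeR called 0 of the 10 genes (background 0.536%, 0.195%, 1.43% and 0.42%). Of the 10, 2, 2, 6 and 4 had an unadjusted p under 0.05 at these times, beside 15.3%, 9.75%, 11.2% and 11.3% of all genes. DESeq2 called 0, 0, 1 and 1, beside 3.55%, 1.61%, 3.22% and 2.56%. Groups without overlap were found for 3, 3, 3 and 1 of the 10, beside 22.3%, 15.9%, 7.37% and 11.9%. Chdh was above WT in GRLKO by its fitted value at every time on this diet, from 0.13 (ZT4) to 0.33 (ZT12, adjusted p = 0.0537), and was not called by edgeR at any of them. DESeq2 called it at ZT12 (adjusted p = 0.000229) and ZT16 (0.0490), and 1 fit of all livers on control feeding at ZT12 (0.0146) and ZT20 (0.0490).

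Whether the genotypes differed by a different amount on each diet was tested as the interaction, in which the library batch of each diet cancels. At ZT12 (background 1.01% of 12225 genes) Chdh was called: the difference of its log2 changes was 0.85 ± 0.11 (adjusted p = 0.00493), the change being 1.17 on caloric restriction and 0.33 on control feeding. It kept the call in all 14 leave-outs, from 0.78 to 0.90, but not with a block for replicate number (0.85, adjusted p = 0.0702). Of the 10 genes 3 had an unadjusted p under 0.05 (14.2% of all genes) and DESeq2 called 2 (3.82%). Mat1a missed the threshold (-1.13 ± 0.26, adjusted p = 0.0666) in edgeR and passed it in DESeq2 (adjusted p = 0.00148), and it passed in edgeR when replicate 2 of GRLKO on control feeding was left out (-1.24, adjusted p = 0.0469). Bhmt was at -1.63 ± 0.63 (adjusted p = 0.256). The Ahcy interaction was -0.74 ± 0.52 as deposited (adjusted p = 0.565) and -0.12 ± 0.16 with the copies summed (adjusted p = 0.797). A difference between the diets was thus not shown for Bhmt or Ahcy, and for Mat1a it depended on the tool.

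At the other times edgeR called no interaction among the 10 genes. The background was 0% at ZT0, 0% at ZT4, 0.081% at ZT8, 0.234% at ZT16 and 0% at ZT20. The genes with an unadjusted p under 0.05 numbered 3, 0, 0, 2 and 2 at these times, beside 10.2%, 6.03%, 8.45%, 10.5% and 6.97% of all genes. DESeq2 called 2 at ZT0 (Pemt -0.36, adjusted p = 0.0455, and Mat1a -0.54, adjusted p = 0.0407) and 0 at the other 4, beside 1.2%, 0.34%, 1%, 1.53% and 0.373% of all genes.

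**Figure D3:**
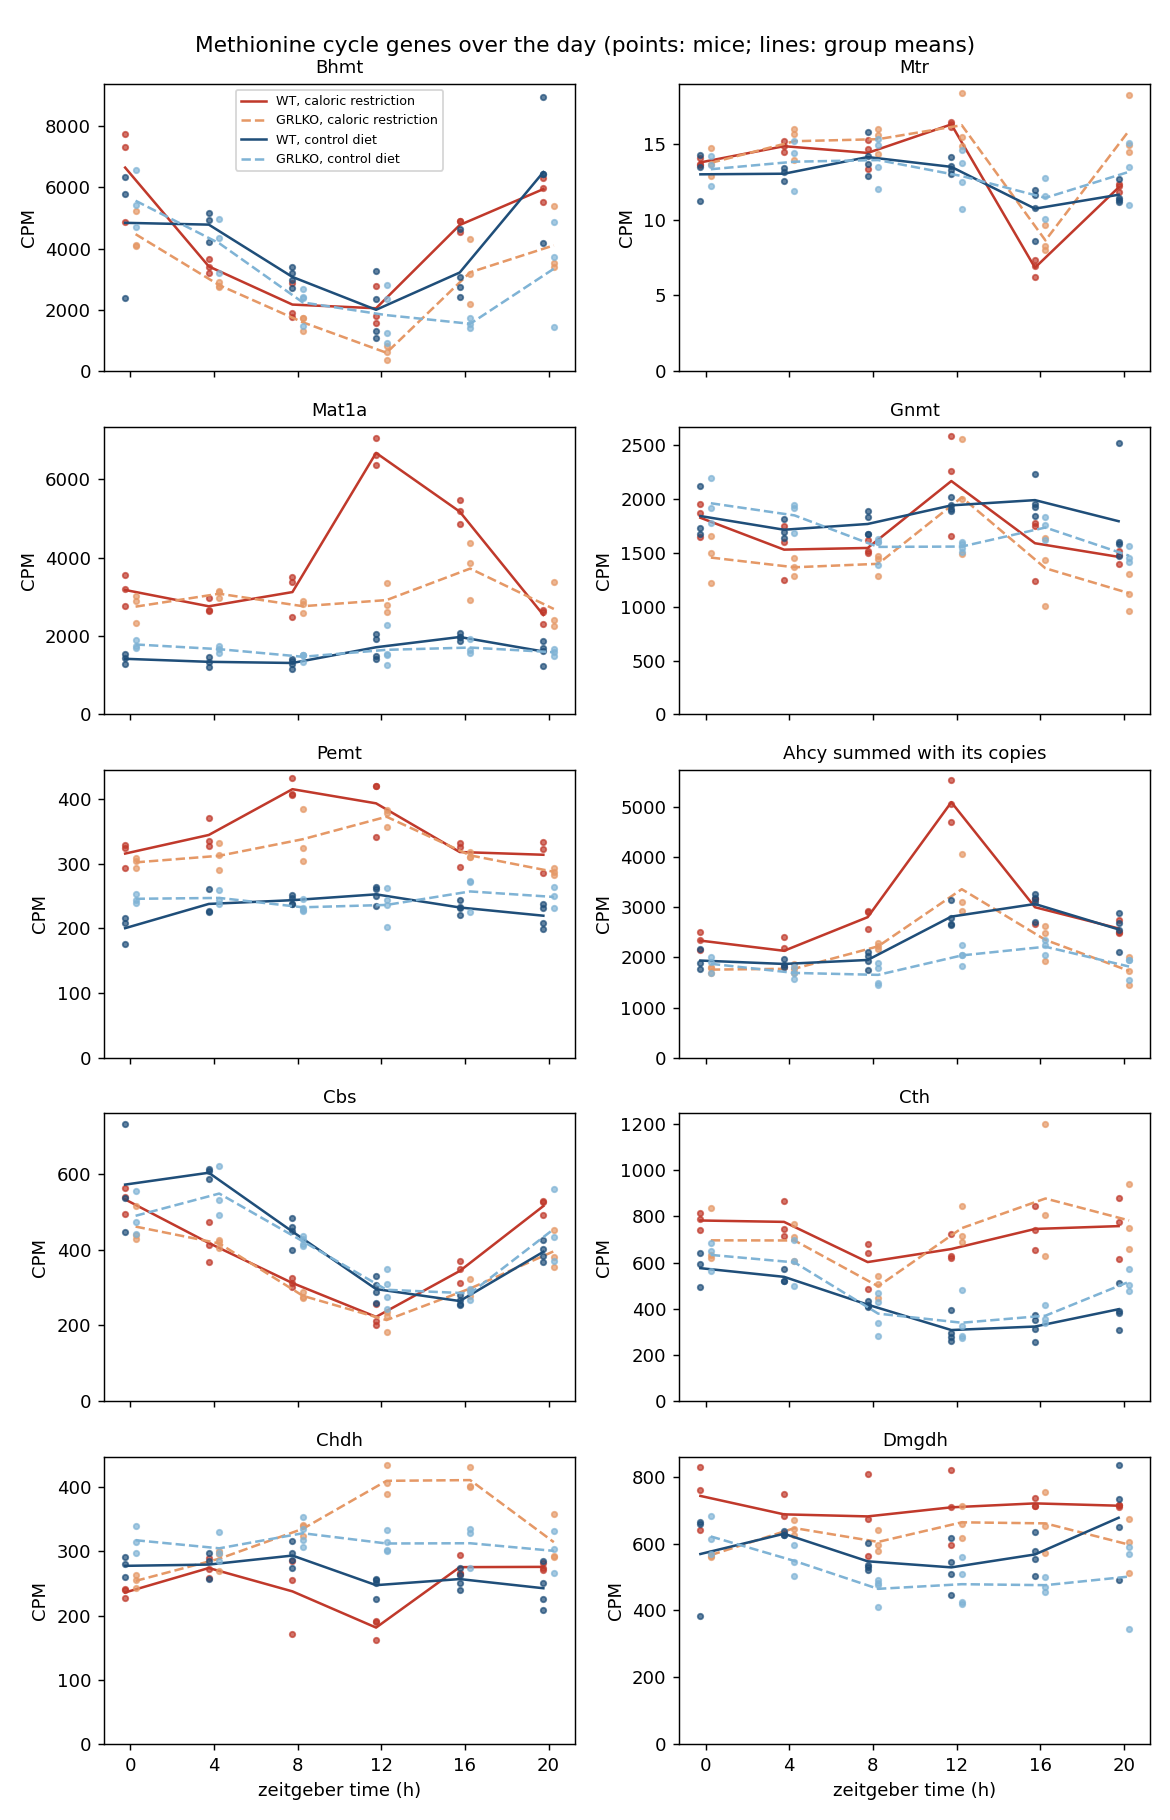
CPM of the 10 genes against zeitgeber time in hours, for WT (solid) and GRLKO (dashed) livers on caloric restriction (red) and control feeding (blue); points are mice, lines join group means, and Ahcy is summed with its copies. Mat1a in WT on caloric restriction reaches 6679 CPM at ZT12, beside 2921 CPM in GRLKO.

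The time series also shows the daily course of each gene, tested with JTK_CYCLE for a 24 h rhythm in each of the 4 groups. In WT on caloric restriction 4 of the 10 genes were rhythmic (background 21.3%), in GRLKO on caloric restriction 3 (19.5%), in WT on control feeding 5 (25.1%) and in GRLKO on control feeding 3 (21.6%). These backgrounds are shares of 18651 to 18932 genes with any count in the group. The filter on low counts was not applied to them, so they include weakly expressed genes, unlike the 10. Bhmt and Cbs were rhythmic in each of the 4 groups, and Ahcy joined them when its copies were summed, which raised the last 3 counts to 4, 6 and 4.

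Bhmt was high around the turn of night to day and low around ZT12. In WT on caloric restriction its mean was 6647 ± 1554 CPM (SD, n = 3) at ZT0 and 2055 ± 632 CPM at ZT12, a ratio of 3.23, and in GRLKO 4474 ± 645 CPM and 602 ± 223 CPM, a ratio of 7.43. On control feeding the highest mean was 6500.4 ± 1953 CPM at ZT20 in WT and 5565 ± 928 CPM at ZT0 in GRLKO. In the order of the WT means on caloric restriction, ZT0 and ZT20 overlapped, as did ZT8 and ZT12, while ZT20 stood apart from ZT16, ZT16 from ZT4 and ZT4 from ZT8. On control feeding no neighbours in the order stood apart in either genotype.

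Cbs followed a similar course. Its mean in WT on caloric restriction fell from 533 ± 35.0 CPM at ZT0 to 222 ± 29.1 CPM at ZT12, a ratio of 2.40, and in GRLKO from 461 ± 48.0 CPM to 214 ± 28.9 CPM. On control feeding it was highest at ZT4, at 603 ± 13.9 CPM in WT and 548 ± 65.8 CPM in GRLKO, and lowest at ZT16, at 264 ± 11.7 and 284 ± 15.1 CPM. Over the 24 group means of log2 CPM, each diet centred on its own mean, Bhmt and Cbs had a correlation of 0.78, given as a description of points that share diets and times.

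Cth, the next enzyme after Cbs, was rhythmic on control feeding in WT (adjusted p = 0.00403, mean 576 ± 74.5 CPM at ZT0 and 308 ± 58.5 CPM at ZT12) and in GRLKO (adjusted p = 0.00146, 633 ± 64.3 and 339 ± 96.5 CPM). On caloric restriction it was not called in WT (adjusted p = 0.402), where the means ran from 602 ± 102 CPM at ZT8 to 782 ± 37.9 CPM at ZT0, or in GRLKO (adjusted p = 0.420). Whether rhythms differed between diets was not tested, since diet and library batch coincide in the time series.

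Mat1a in WT on caloric restriction was high at ZT12 and ZT16. Its mean was 3125 ± 558 CPM at ZT8, 6679 ± 347 CPM at ZT12, 5179 ± 311 CPM at ZT16 and 2540.0 ± 189.9 CPM at ZT20, and ZT12 stood apart from ZT16 and ZT16 from ZT0, the next in the order. JTK_CYCLE did not call this course (adjusted p = 0.196). In GRLKO on caloric restriction the means stayed between 2694 ± 609 CPM (ZT20) and 3725 ± 742 CPM (ZT16), with overlap between all neighbours. On control feeding Mat1a was rhythmic in WT (adjusted p = 0.00798), between 1315 ± 114 CPM at ZT8 and 1978 ± 80.4 CPM at ZT16, and was not called in GRLKO (adjusted p = 0.450). The difference of the Mat1a rhythms between genotypes was not called on caloric restriction (adjusted p = 0.151) or on control feeding (0.212), and the latter passed when GRLKO replicate 3 at ZT12 was left out (0.0440).

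Ahcy with its copies peaked at ZT12 on caloric restriction, at 5096 ± 420.4 CPM in WT and 3361 ± 610 CPM in GRLKO, and at ZT16 on control feeding, at 3066 ± 245 CPM in WT and 2214 ± 150 CPM in GRLKO. Its adjusted p was 0.00291 and 0.00335 on caloric restriction and 0.000227 and 0.0141 on control feeding. As deposited it was rhythmic in WT on caloric restriction alone, and in WT on control feeding (adjusted p = 0.316) it passed without replicate 3 (0.0442) or 4 (0.0445) at ZT16, both livers with counts on the copies. The rhythms of the genotypes were not called different, with an adjusted p of 0.886 on caloric restriction and 0.221 on control feeding when the copies were summed.

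Chdh was the 1 gene of the 10 whose rhythm differed between the genotypes. On caloric restriction limma gave an adjusted p of 0.00770 for the difference (background 0.767%), with fitted peaks at 22.4 h in WT and 13.4 h in GRLKO. In WT the mean was lowest at ZT12, at 181 ± 16.2 CPM, and highest at ZT20, at 276 ± 5.88 CPM. In GRLKO it rose from 254 ± 10.2 CPM at ZT0 to 410 ± 22.7 CPM at ZT12 and 411 ± 17.3 CPM at ZT16, and JTK_CYCLE called it rhythmic there (adjusted p = 0.00126) and not in WT (adjusted p = 1). On control feeding 0 of the 10 genes had a called rhythm difference by limma (background 0.421%). There Pemt came nearest (adjusted p = 0.0839), and it passed without WT replicate 2 at ZT4 (0.0442), without GRLKO replicate 3 at ZT12 (0.0498) or without WT replicate 3 at ZT20 (0.0497).

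Pemt was rhythmic in WT on caloric restriction (adjusted p = 0.0162), with its highest mean at ZT8, 415 ± 14.5 CPM, and its lowest at ZT20, 314 ± 25.5 CPM. In GRLKO on that diet it was not called (adjusted p = 0.0936), and the call appeared without replicate 3 at ZT4 (0.0479) or replicate 2 at ZT8 (0.0418). In WT on control feeding its adjusted p was 0.00509, but its amplitude of 0.0969 was under the minimum of 0.1, which it passed in 7 of 22 leave-outs. Mtr was called in WT on control feeding (adjusted p = 0.0357), from 14.1 ± 1.22 CPM at ZT8 to 10.7 ± 1.49 CPM at ZT16, but 13 of the 22 leave-outs ended the call, by the adjusted p or by the amplitude. On caloric restriction Mtr in WT went from 16.3 ± 0.155 CPM at ZT12 to 6.83 ± 0.555 CPM at ZT16, 2.38 times apart and without overlap, a drop within 4 h that the rhythm test did not call (adjusted p = 0.161). Gnmt and Dmgdh were not called rhythmic in any of the 4 groups, and Dmgdh passed in GRLKO on control feeding without replicate 4 at ZT12 (0.0462) or replicate 1 at ZT20 (0.0292).

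The corticosterone experiment asks whether the hormone given to control-fed WT mice changes these transcripts at ZT12. EdgeR called 0 of the 10 genes (background 8.11% of 11523 genes), 0 had an unadjusted p under 0.05 (26% of all genes), and DESeq2 called 0 (11.9%). The treated livers were not alike: replicate 2 differed from replicates 1 and 3 in several of the genes.

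Bhmt was at 2419, 2081 and 2275 CPM in the NR livers and at 906, 2701 and 425 CPM in the corticosterone livers. Replicate 2 was above all NR livers and the other treated livers below them (-0.75 ± 0.58, adjusted p = 0.472). Mat1a was at 1595, 1429 and 1368 CPM and at 1618, 4061 and 1811 CPM, so that every treated liver was above every NR liver and replicate 2 far above the rest (0.77 ± 0.34, adjusted p = 0.206). Mat1a was the 1 gene of the 10 without overlap, beside 32.8% of all genes. Dmgdh was at 521, 506 and 468 CPM and at 377, 596 and 318 CPM, Ahcy at 2542, 2327 and 2587 CPM and at 1997, 3119 and 1961 CPM, and Cth at 272, 238 and 336 CPM and at 193, 363 and 179 CPM, with replicate 2 the highest of the 6 livers in all 3 genes. Fkbp5, at 217, 292 and 199 CPM in the treated livers and 52.9, 41.6 and 19.8 CPM in the NR livers, was raised in replicate 2 as in the others.

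Leaving out corticosterone replicate 2 gave -1.77 ± 0.31 for Bhmt (adjusted p = 0.0235) and -0.53 ± 0.11 for Dmgdh (adjusted p = 0.0337). The other values were -0.61 for Cth (0.0637), -0.34 for Ahcy (0.0703), -0.44 for Gnmt (0.106) and 0.22 for Mat1a (0.233). That fit rests on 2 treated livers, and replicate 2 was picked out by the values of these same genes, so its p values describe how far the result hangs on 1 liver and are no test of the hormone. The hepatocyte sum was 96972, 90501 and 94751 CPM in the NR livers and 96318, 97593 and 88260.0 CPM in the treated livers, and the Kupffer sum 53.8, 63.6 and 72.9 CPM and 63.7, 99.1 and 80.5 CPM, with replicate 2 the highest. Lower in every treated liver were the endothelial sum (92.6, 99.2 and 118 CPM against 73.6, 80.7 and 85.1 CPM), the erythrocyte sum (530.1, 481 and 592 CPM against 256, 411 and 233 CPM), the lymphocyte sum (means of 1.71 and 0.578 CPM) and the adipocyte sum, nearly all Car3 (3324, 2764 and 2553 CPM against 1744, 1672 and 1225 CPM). Their part in the results was not tested.

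Other genes of one-carbon and sulfur metabolism were read from a list of 52. In the diet comparison 13 of them were higher and 11 lower on caloric restriction, with a median log2 change of -0.06, a share near the 47.1% of all genes and so no result about the list. Among the largest rises were those of Chka, which phosphorylates choline (2.37 ± 0.20, adjusted p = 0.000274), and Nnmt, which methylates nicotinamide (1.81 ± 0.35, adjusted p = 0.00544). The largest falls were in Tst, a thiosulfate sulfurtransferase (-0.94), Srm, the spermidine synthase (-0.77), and Suox, the sulfite oxidase (-0.75).

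Between the genotypes on caloric restriction at ZT12, 5 of the 51 genes of the list that were tested were higher in GRLKO and 8 lower, with a median of 0.06, beside 15.3% called of all genes. The largest differences were in Mthfd1l, a mitochondrial folate enzyme (1.58 ± 0.34), Pcyt1a, of phosphatidylcholine synthesis (0.63 ± 0.11), and Sqor, which oxidises sulfide (0.39 ± 0.09), which were higher, and in Gldc, of the glycine cleavage system (-1.50 ± 0.19), Chka (-1.29 ± 0.35) and As3mt, an arsenic methyltransferase (-1.11 ± 0.08), which were lower. In the corticosterone experiment 5 of 51 were lower and 0 higher, with a median of -0.07, near the share of 8.11% of all genes, among them Chka (-1.83 ± 0.28), Ethe1, a sulfur dioxygenase of mitochondria (-1.11 ± 0.23), and Mtap, of methionine salvage (-0.58 ± 0.11). Chka had means of 13.4 ± 2.94 CPM on the control diet and 69.3 ± 14.9 CPM on caloric restriction in the diet experiment, and of 71.1 ± 22.6 CPM in the NR livers and 19.96 ± 6.07 CPM in the corticosterone livers, so the control livers of the experiments were not at 1 level.

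The genes whose course over the 24 group means was most like that of the called genes were found by Pearson correlation among 12624 genes, as a description without a test. For Bhmt they were Steap3 (0.93) and Car14 (0.93), for Chdh Entpd5 (0.91) and Proca1 (0.88), and for Mat1a an unnamed gene, ENSMUSG00000083840 (0.91), and Dnaja3 (0.87). For Ahcy as deposited they were Chp1 (0.84) and Serinc3 (0.83), and with the copies summed Ppme1 (0.95) and Asl (0.93), a urea cycle enzyme. Among the 10 genes themselves, Mat1a and Ahcy had a correlation of 0.60 as deposited and 0.69 with the copies, and Chdh and Ahcy one of -0.66 as deposited and -0.43 with the copies.

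In the genome, Bhmt (chr13:93616675-93637961) and Dmgdh (chr13:93674433-93752833) lie near each other on opposite strands, and Mat1a (chr14:41105035-41124412) and Chdh (chr14:30009023-30040527) share chromosome 14. In the 250 bases before the RefSeq start (GRCm38.p6), found for 8 of the 10 genes in 11 windows and missing for Mat1a and Cth, both strands were searched for 4 motifs, with their share of all 32851 promoters in brackets. TGTTCT was in 1 window (16.1%), of Chdh, TGTTTAC in 0 (3.17%), CACGTG in 1 (6.02%), of Cbs, and AGGTCA in 3 (14%), of Ahcy, Bhmt and Gnmt. These are matches of letters and were not tested as sites.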

How the data were processed

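Reads had been quantified with Salmon by the authors, who deposited estimated counts per gene in 4 tables; all 90 columns were matched to sample titles. The labels give mm10 as the genome build, and GENCODE M21 served for coordinates and transcript words. A deposited table of VST values for 6 libraries was not used, since the tests need counts. In R 4.3.3, counts were rounded and each comparison was fitted on its own libraries with edgeR 4.0.16 (quasi-likelihood F test, TMM, filterByExpr with a minimum count of 10), with Benjamini-Hochberg adjustment over all genes tested and calls under 0.05. Rhythms were tested on VST values (DESeq2 1.42.0) with JTK_CYCLE (exact null distribution, 6 phases, amplitude over 0.1) and their difference with limma 3.58.1 (sine and cosine by genotype). Alternatives were DESeq2, RLE factors, no filter, a replicate block, 1 fit for a whole diet, log2 CPM (prior count 2) and leave-outs. Copies sharing at least 10% of a member's 31-base words were summed, a choice made after seeing the data. The members and gene lists were chosen with earlier results of these data known; named genes of the wider list are the 3 called ones that rose and fell most, apart from any not reported here.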

Additional observations from a re-analysis of the deposited data

Results flagged for a closer look

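In 5 of the 60 groups of 4 livers tested (10 genes in 6 groups), 1 liver lay far from the others by Dixon's ratio of gap to range, where chance gives about 1 in 20 groups. GRLKO replicate 4 on control feeding at ZT8 was low for Mat1a (1350.45 CPM), Gnmt (1386 CPM) and Dmgdh (409.7 CPM). WT replicate 1 on control feeding at ZT20 was high for Gnmt, at 2519.7 CPM. GRLKO replicate 2 on control feeding at ZT12 was low for Ahcy, at 695 CPM, and is 1 of the 7 libraries in which between 62.1% and 65.2% of the summed level lay on the copies.

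Chdh differed between the diets in how far GRLKO stood from WT at ZT12, with an interaction of 0.85 on the log2 scale, and between the genotypes in its daily rhythm on caloric restriction, with an adjusted p of 0.00770. The interaction was not called with a block for replicate number (adjusted p = 0.0702).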

How the results depend on the processing

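Calls of the 10 genes were recounted under each alternative. For the genotype on caloric restriction the 5 calls over 6 times became 15 with DESeq2 and 11 with 1 fit for the whole diet, while the share of all genes called went from 4.12% to 7.37% and 7.93%. On control feeding the 2 calls became 6 with DESeq2, 1 without the filter on low counts, 0 with the replicate block and 4 with the copies summed. There 1 fit for the whole diet gave 3, with both of the 2 lost (Gnmt 0.0834, Bhmt 0.128) and 3 others gained. The shares of all genes were 1.1% at first, then 3.54%, 0.746%, 0.259%, 1.11% and, for the whole diet, 2.74%. The 1 interaction became 4 with DESeq2 and 0 with the replicate block, and the share went from 0.218% to 1.37% and 0.0188%. Whether the moves go beyond those of all genes was not tested. The diet effect for Cbs changed sign when taken from the time series (-0.43, adjusted p = 0.0191), where diet and batch cannot be told apart.

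Leaving out each library in turn gave 6 to 8 calls for the diet, 4 to 6 for the genotype on caloric restriction, 1 to 2 on control feeding, 1 to 2 interactions and 0 to 2 for corticosterone. Shares of all genes ran from 34% to 48.5%, 2.87% to 4.17%, 0.886% to 1.12%, 0.118% to 0.251% and 1.76% to 8.59%. Rhythmic genes numbered 4 to 4 in WT and 3 to 4 in GRLKO on caloric restriction, and 4 to 6 and 3 to 4 on control feeding; rhythm differences numbered 1 to 1 and 0 to 2. Shares of all genes were 18% to 20%, 15.2% to 19.5%, 22.7% to 25.1% and 18.2% to 22.2%, and 0.376% to 0.951% and 0.257% to 0.514%. RLE factors changed 0 of 200 gene results.

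Libraries were paired by replicate number alone. Same-numbered deviations had correlations from -0.122 to 0.115, and in no comparison was every pair above 0.1. The replicate block left 7 diet calls, 4 for the genotype on caloric restriction and 0 for corticosterone, beside 43.5%, 1.98% and 4.63% of all genes. It left 1 rhythm difference on caloric restriction and 0 on control feeding, beside 69 of 13041 and 40 of 12834 genes. It ended 4 calls of a gene: Bhmt at ZT12 on caloric restriction (adjusted p = 0.0527), Gnmt at ZT12 (0.144) and Bhmt at ZT16 (0.1001) on control feeding, and the Chdh interaction (0.0702); it changed no other call. Groups of 3 or 4 mice and the split of Ahcy counts limit the precision.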
